A study of Mus musculus with 12 samples.

Results

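Small nucleolar RNAs (snoRNAs) and small Cajal body RNAs were followed in the #483 clone of C57BL6 mouse origin, a T-ALL (acute leukaemia of the T cell lineage), with and without 4EGI-1. Members were all probe sets annotated to 1 gene symbol that starts with Snora, Snord or Scarna and a digit. There were 56 such probe sets among 34760 on the array, for 54 genes: 20 Snora, 31 Snord and 3 Scarna. Of these, 41 genes (15 Snora, 23 Snord and 3 Scarna) had a mean over the 12 arrays at or above log2 6.0, the 40th percentile of all probe sets and called the filter level here, and were tested among 13180 genes in all, and the other 13 are given separately. The choice by symbol used no measured value.

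The study has 12 single-colour whole-transcript arrays in 4 groups of 3: cytoplasmic control, cytoplasmic 4EGI-1, polysomal control and polysomal 4EGI-1. Treated cells received 100 µM 4EGI-1, which keeps eIF4E, the protein that binds the mRNA cap, from its scaffold eIF4G, for 2 h. Control cells are labelled untreated, whereas the protocol names DMSO, and both arms met cycloheximide when they were washed and lysed. All arrays come from 1 clone, so no other leukaemia is represented. The reference RNA is labelled cytoplasmic but titled total, was taken from cells with Trizol, and may hold nuclear RNA. Polysomal RNA was pooled from sucrose gradient fractions, purified on Nucleospin columns and precipitated with LiCl. Fraction and extraction method therefore cannot be told apart in any comparison of polysomal with cytoplasmic RNA.

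SnoRNAs are short non-coding RNAs that act in the nucleolus, where ribosomal RNA is made and modified. Box C/D RNAs (Snord) guide 2'-O-methylation and box H/ACA RNAs (Snora) guide pseudouridylation, while small Cajal body RNAs (Scarna) guide the same modifications on spliceosomal RNAs. A few snoRNAs serve the cleavage of the ribosomal RNA precursor instead. In mammals most are cut out of introns of host genes, many of which encode ribosomal proteins or translation factors, so that a host transcript yields both an mRNA and a snoRNA. They are not translated. A probe set here cannot separate the mature small RNA from an unspliced host intron that holds it, and copies of near-identical sequence (Snora73a and Snora73b, Snord42a and Snord42b, Snord15a and Snord15b, Snord73a and Snord73b, the Snord14 family) may share signal.

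Values are log2 expression values made by the authors with RMA, which puts all arrays on a common scale. A difference is therefore relative to the other genes on the array, and levels of different probe sets are not set against each other. The median of all tested genes lay between 7.71 and 7.88 on the 12 arrays. The replicate arrays of a group differed more for these small RNAs than for genes at large: the median SD of the tested members was 0.20 in both cytoplasmic groups, 0.12 in untreated and 0.16 in treated polysomal RNA, against 0.07 to 0.13 for all genes. Checked against its markers, the line showed 9 of 9 measured T cell markers and 4 of 4 immature T cell markers above the filter level on all 12 arrays. Of the markers of other cell types, 1 of 3 for B cells, 2 of 4 for myeloid cells and 3 of 3 for stromal cells also reached that level on all 12, and no erythroid marker was measured. Less RNA per cell and fewer cells of a kind cannot be told apart in such bulk samples.

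The question of the fraction comparison is which RNAs are found with polysomes. These small RNAs were lower in polysomal than in cytoplasmic RNA. Over all 54 genes, in a fit without a filter on dim genes, 38 were lower and 0 higher in control cells, and 39 were lower and 0 higher in 4EGI-1 cells (limma, adjusted p under 0.05). At an unadjusted p under 0.05, 1 was higher in each treatment. The same fit called 6.99 percent of all genes lower and 9.77 percent higher in control cells, and 3.86 and 4.86 percent in 4EGI-1 cells. The median log2 difference of the 54 was -0.86 in both, against -0.02 for all genes in either comparison.

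By class, 24 of 31 Snord genes were lower in each treatment, as were 13 of 20 Snora genes, while 1 of 3 Scarna genes was lower in control and 2 of 3 in 4EGI-1 cells. The class medians in control cells were -0.94 for Snord, -0.65 for Snora and -0.50 for Scarna. Whether the classes differ was not tested. In the fit restricted to brighter genes, 32 of 41 were lower in control cells (background 12.2 percent lower, 16.7 percent higher) and 33 of 41 in 4EGI-1 cells (background 7.15 percent lower, 9.56 percent higher), 30 of them in both. In limma 0 were higher in either treatment, and at an unadjusted p under 0.05 0 and 1 were. The 41 are not all members, and 5 of them had a polysomal control mean below the filter level. Among the 34 that reached that level in each fraction, 25 and 27 were lower, against 12.3 and 6.94 percent of genes so filtered. Arrays did not overlap for 33 of 41 members in control cells, all lower in polysomal RNA, where 19.9 percent of genes were lower without overlap.

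**Figure D1:**
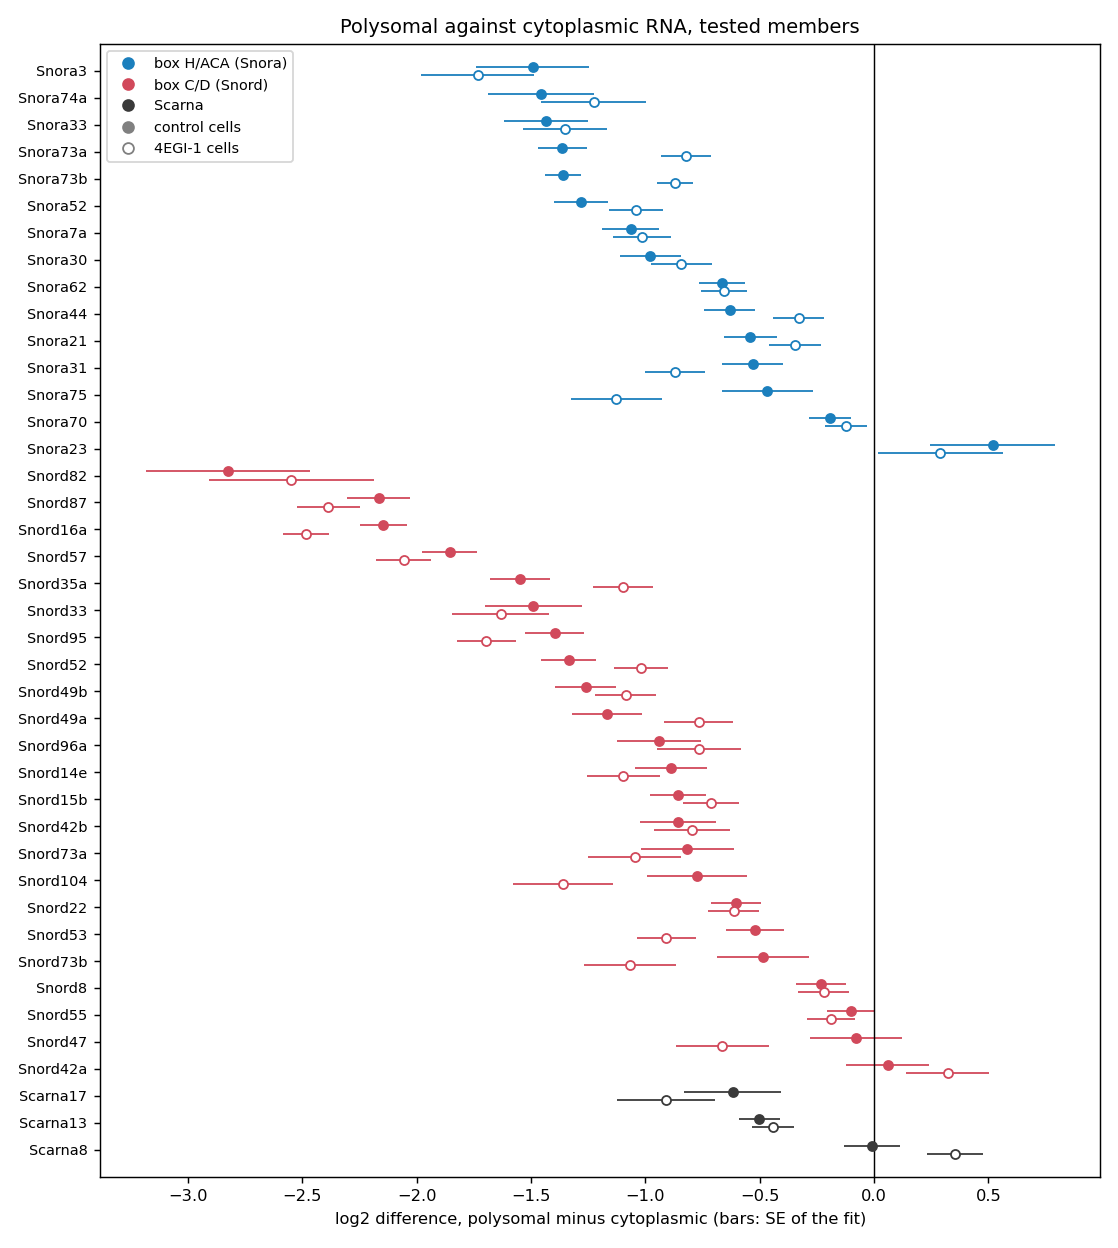
Log2 difference, polysomal minus cytoplasmic, for each of the 41 tested members (vertical axis), ordered within the Snora, Snord and Scarna classes by the difference in control cells. Filled points are control cells, open points 4EGI-1 cells, bars are standard errors of the fit, and the values run from -2.82 for Snord82 to 0.52 for Snora23.

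Among the 41 tested members the largest differences were in box C/D RNAs. Snord82, which guides methylation of small-subunit rRNA from within Ncl, the gene of nucleolin, measured 8.70, 9.51 and 8.23 on the cytoplasmic control arrays. On the polysomal control arrays it measured 5.79, 5.48 and 6.68. All 3 polysomal values lay below all 3 cytoplasmic values, and the difference was -2.82 ± 0.36 (SE, adjusted p = 4.8e-05 in limma). The polysomal control mean, 5.99, lay below the filter level, which the gene reached through its other arrays, so no fold is given. In 4EGI-1 cells it was -2.55 ± 0.36. Its replicates were uneven, with SDs of 0.42 to 0.65 in the 4 groups.

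Snord16a, a guide for small-subunit rRNA, had 9.73, 9.77 and 9.54 in cytoplasmic control RNA and 7.43, 7.64 and 7.53 in polysomal control RNA. The gap of -2.15 ± 0.10 (adjusted p = 5.57e-09 in limma) far exceeds the spread of either trio. In 4EGI-1 cells it was -2.48 ± 0.10. Snord87, which targets large-subunit rRNA, went from 7.93, 8.17 and 7.55 to 5.78, 5.59 and 5.78 in control cells, a difference of -2.17 ± 0.14, and its polysomal values too lay below the filter level. Snord57 went from 9.63, 9.36 and 9.73 to 7.61, 7.91 and 7.63, a difference of -1.86 ± 0.12. Together with Snord82 these were the 4 largest differences of tested members in either treatment, and in each the 3 arrays per group stayed apart. Of the tested Snord genes Snord35a followed in control cells with -1.55 ± 0.13, and Snord95 in 4EGI-1 cells with -1.70 ± 0.13.

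Among tested box H/ACA RNAs, Snora3 showed the largest difference. It measured 9.16, 9.74 and 8.77 in cytoplasmic and 7.58, 7.83 and 7.77 in polysomal control RNA, a difference of -1.49 ± 0.25 (adjusted p = 0.0004 in limma), and -1.73 ± 0.25 in 4EGI-1 cells. A dimmer second probe set of Snora3 gave -1.60 and -1.67. Snora74a (-1.45 ± 0.23), Snora33 (-1.43 ± 0.18), Snora73a (-1.36 ± 0.11) and Snora73b (-1.36 ± 0.08) lay close behind in control cells. These 5 differences are within their standard errors of each other. In 4EGI-1 cells the order changed to Snora3, Snora33 (-1.35 ± 0.18), Snora74a (-1.23 ± 0.23), Snora75 (-1.13 ± 0.20) and Snora52 (-1.04 ± 0.12).

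A minority did not follow. Snora23, an H/ACA guide inside Ipo7, the gene of an importin, measured 8.01, 8.68 and 7.49 in cytoplasmic control and 8.44, 8.80 and 8.50 in polysomal control RNA. Its groups overlapped, with a difference of 0.52 ± 0.27 (adjusted p = 0.177 in limma). Without cytoplasmic control array 2 it would count as higher, at 0.83 with an adjusted p of 0.0173 in limma. Snord42a gave 0.06 ± 0.18 in control and 0.32 ± 0.18 in 4EGI-1 cells, whereas its relative Snord42b gave -0.86 ± 0.17 and -0.80 ± 0.17. The remaining Snord genes that did not pass in control cells were Snord47 (-0.08 ± 0.20), Snord55 (-0.10 ± 0.10), Snord8 (-0.23 ± 0.11) and Snord73b (-0.49 ± 0.20), and the remaining Snora genes were Snora70 (-0.19 ± 0.09) and Snora75 (-0.47 ± 0.20).

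The Scarna genes spread widely. Scarna13 was lower in both treatments (-0.50 ± 0.09 and -0.44 ± 0.09), with arrays of 7.26, 7.51 and 7.48 in cytoplasmic control and 6.95, 6.84 and 6.96 in polysomal control RNA. Scarna17 was lower by -0.62 ± 0.21 in control cells, a call that ended in 12 of the alternatives tried, and by -0.91 ± 0.21 in 4EGI-1 cells. Scarna8 did not pass, at -0.01 ± 0.12 in control and 0.35 ± 0.12 in 4EGI-1 cells (adjusted p = 0.964 and 0.0624 in limma).

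Of the 13 genes below the filter level, whose means over the 12 arrays ran from 4.03 to 5.96, 7 were lower in polysomal control RNA in the unfiltered fit and 7 in polysomal 4EGI-1 RNA. Snord61 had 5.40, 6.37 and 5.70 in cytoplasmic control and 3.05, 2.48 and 4.13 in polysomal control RNA, a difference of -2.60 ± 0.31. Snord37, which lies in the gene of elongation factor Eef2, differed by -2.20 ± 0.29. Snord118, also called U8 and needed to process large-subunit rRNA, differed by -1.61 ± 0.27. Snora2b was the only dim gene with all polysomal control values (5.64, 5.78 and 5.74) above all cytoplasmic control values (5.08, 5.44 and 5.07), and it did not pass (0.52 ± 0.18, adjusted p = 0.0678 in limma).

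Among the tested members, RNA length and fraction difference had low rank correlations. All these RNAs are short, so the values do not bear on differences between short and long RNAs. RefSeq lengths of the 41 tested genes ran from 45 to 275 nucleotides, and across genes, which are not independent replicates and share arrays and hosts, Spearman's rho between length and fraction difference was 0.07 in control and 0.26 in 4EGI-1 cells.

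Host genes were looked up in the RefSeq gene table of GRCm38.p6 as genes whose span holds the small RNA. The table gives no exons, so intron or exon was not read from it, and it gives no strand. Of the 54, 50 lay in exactly 1 gene, 3 in 2 genes and 1 (Snord118) in none. The single hosts were protein-coding for 38 members, among them 21 inside ribosomal protein genes, and lncRNA genes for 12. For 21 tested members the single host, 18 genes in all, was also tested.

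Most small RNAs of the pairs lay further down in polysomal RNA than their host transcript, though some pairs were lower together. In control cells 15 of the 21 small RNAs were lower in polysomal RNA and 0 higher, while of the 18 hosts 7 were lower and 2 higher. Small RNA and host were both lower in 6 pairs, and in 8 the small RNA was lower and the host did not pass. In 1 the small RNA was lower and the host higher. The small RNA lay below its host in 19 of 21 pairs, with median differences of -0.82 for the small RNAs and -0.11 for the hosts. In 4EGI-1 cells 16 small RNAs and 6 hosts were lower, the small RNA lay below its host in 18 of 21, and the medians were -0.91 and -0.10. Both were lower in 6 pairs there. Rpl4, which encodes a large-subunit ribosomal protein, differed by -0.07 where Snord16a inside it differed by -2.15. Nop56, a core protein of box C/D particles, differed by -0.20 where Snord57 differed by -1.86. For Rpl27a and Snora3 the values were -0.03 and -1.49. Rplp2, the gene of an acidic stalk protein, was itself lower by -0.67, with Snora52 at -1.28. Closer pairs included Snora62 (-0.67) with Rpsa (-0.58) and Snora31 (-0.53) with Tpt1 (-0.41). Across the 21 pairs, which share arrays and in part hosts, Pearson's r between both differences was 0.05 in control and -0.11 in 4EGI-1 cells.

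**Figure D2:**
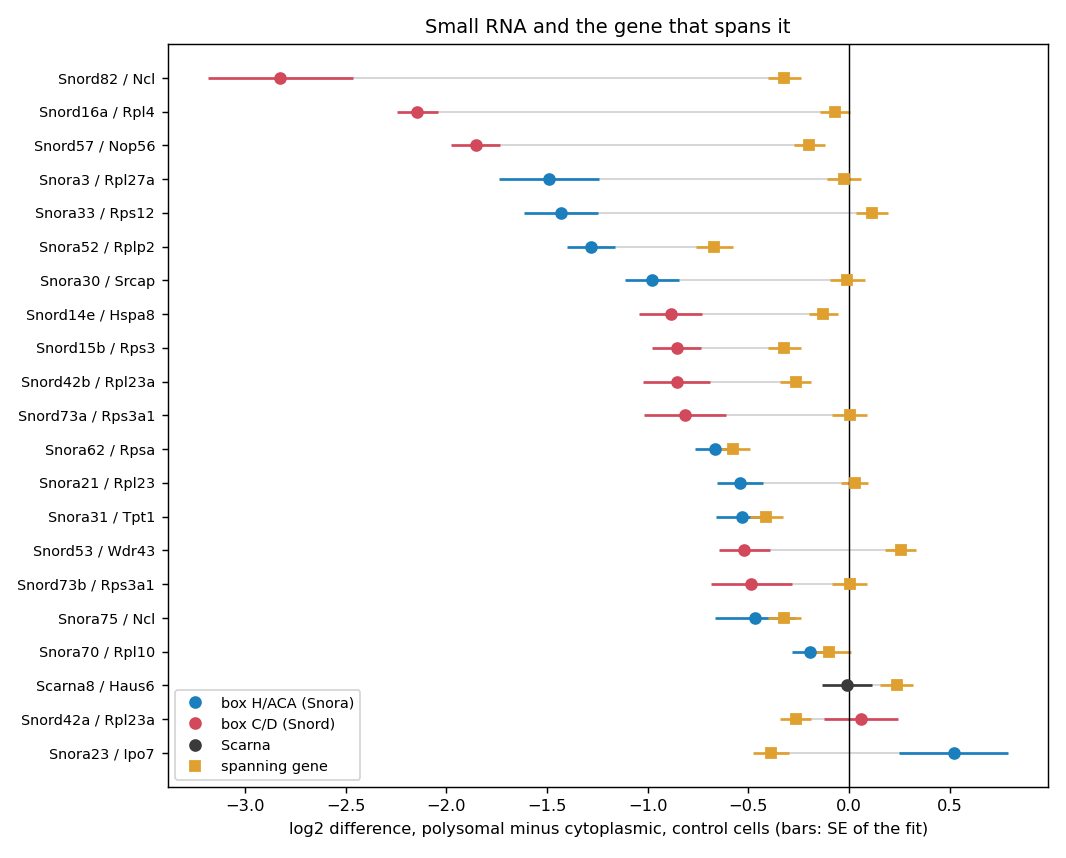
Log2 difference, polysomal minus cytoplasmic, in control cells for 21 small RNAs (circles, coloured by class) and the gene that spans each (squares), with standard errors of the fit. Hosts lie between -0.67 for Rplp2 and 0.26 for Wdr43, while 19 of 21 small RNAs lie to the left of their host.

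Of the hosts, 10 hold a pair of members, and the pairs named here were chosen after their values were seen. Snora75 and Snord82, both inside Ncl, differed by -0.47 ± 0.20 and -2.82 ± 0.36 between fractions in control cells. Snord33 and Snord35a of Rpl13a, whose snoRNAs have been linked to lipotoxic stress, gave -1.49 ± 0.21 and -1.55 ± 0.13. The polysomal control mean of Snord33, 5.78, lay below the filter level. Snord42a and Snord42b of Rpl23a gave 0.06 ± 0.18 and -0.86 ± 0.17, and Snord95 and Snord96a of Rack1 gave -1.40 ± 0.13 and -0.94 ± 0.19. Such differences between members were not tested.

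Many snoRNA hosts are transcribed from start sites within a pyrimidine run, the 5' terminal oligopyrimidine (TOP) type that ties an mRNA's translation to growth signals. Starts of hosts named above are shown for this reason, from 60 bases before to 25 bases from the RefSeq start, 5' to 3' on the coding strand of GRCm38.p6, with CTTTC in capitals. Rplp2 is at chr7:141447591-141447675 (plus strand), Rpl4 at chr9:64173327-64173411 (plus), Rpl27a at chr7:109519135-109519219 (plus) and Nop56 at chr2:130274352-130274436 (plus).
Rplp2: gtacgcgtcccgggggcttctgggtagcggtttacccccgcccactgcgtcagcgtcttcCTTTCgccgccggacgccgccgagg
Rpl4: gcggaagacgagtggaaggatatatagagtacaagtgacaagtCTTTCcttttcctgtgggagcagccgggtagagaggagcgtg
Rpl27a: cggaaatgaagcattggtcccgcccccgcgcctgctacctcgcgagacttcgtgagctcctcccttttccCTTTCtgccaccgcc
Nop56: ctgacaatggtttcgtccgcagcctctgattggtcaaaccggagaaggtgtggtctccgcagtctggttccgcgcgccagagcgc
The letters CTTTC, chosen after these sequences had been seen, occur on the coding strand of this window in 11 of 35 start sites of the hosts (31.4 percent), and in 3626 of 32851 start sites in the table (11.0 percent). The 35 belong to 33 of 46 host genes, as the others have no start in the table. They include the starts shown, so their share is not independent of the choice of letters. On the opposite strand they occur in 1 of 35 (2.86 percent) and in 9.98 percent. A match is a description of the letters only.

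In cytoplasmic RNA, a subset of both main classes fell with 4EGI-1. Of 41 tested members 10 fell and 0 rose in limma (13 and 0 at an unadjusted p under 0.05), where 7.79 percent of all genes fell and 10.1 percent rose. They were 5 of 15 Snora (Snora44, Snora52, Snora73a, Snora73b and Snora7a), 5 of 23 Snord (Snord14e, Snord35a, Snord42b, Snord49a and Snord52) and 0 of 3 Scarna. The median difference was -0.21 for the members and -0.03 for all genes. Arrays of 13 members lay wholly lower in treated cells, as did those of 12.8 percent of all genes. Over all 54, unfiltered, 9 fell and 0 rose (15 and 1 at an unadjusted p under 0.05), with 3.99 percent of genes falling and 6.35 percent rising.

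Snord52, a guide for large-subunit rRNA in the lncRNA gene 1110038B12Rik, fell furthest. It measured 7.99, 8.19 and 7.91 on cytoplasmic control arrays and 7.02, 6.65 and 6.67 on cytoplasmic 4EGI-1 arrays, without overlap. The change was -1.25 ± 0.12 (adjusted p = 5.6e-06 in limma). Snora73b, also called U17 and needed to cleave the rRNA precursor, went from 8.11, 7.92 and 8.04 to 7.04, 6.84 and 6.87, a change of -1.11 ± 0.08. Its near-copy Snora73a went from 7.77, 7.74 and 7.70 to 7.0, 6.61 and 6.91, a change of -0.89 ± 0.11. For each of these 3 genes all treated arrays lay below all control arrays.

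Snord35a, a guide for large-subunit rRNA, went from 7.71, 7.51 and 8.11 to 7.12, 6.79 and 7.13 (-0.76 ± 0.13). Snord49a fell by 0.72 ± 0.15 and Snord14e by 0.57 ± 0.16. Snora52, Snora7a and Snora44, all H/ACA guides for rRNA, changed by -0.52 ± 0.12, -0.49 ± 0.13 and -0.49 ± 0.11, and Snord42b by -0.54 ± 0.17. Snord49b, which shares the host 2410006H16Rik with Snord49a, changed by -0.38 ± 0.13 and did not pass (adjusted p = 0.0616 in limma). When only the 6 cytoplasmic arrays were fitted, 6 members fell, with 2.8 percent of all genes, and Snora52, Snora7a, Snord14e and Snord42b no longer passed. Without cytoplasmic 4EGI-1 array 3, Scarna17, Snora23 and Snord53 counted as risen and the median of the members was -0.05.

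**Figure D3:**
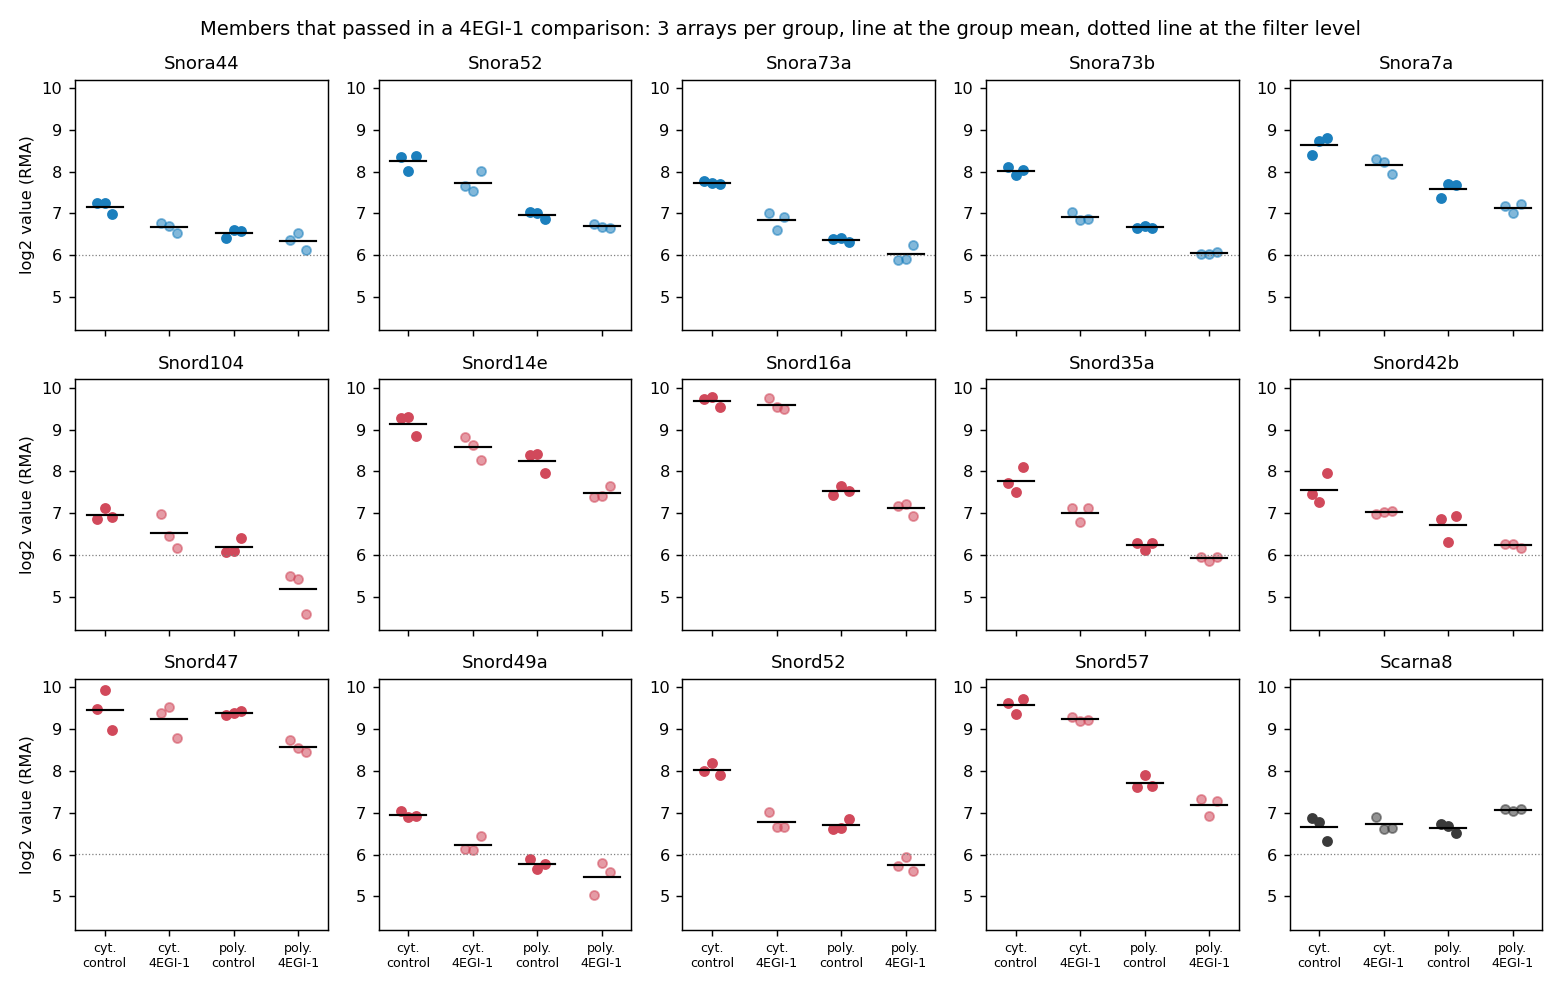
Log2 values (vertical axis) on the 3 arrays of each of the 4 groups for the 15 members that passed in a 4EGI-1 comparison, with a line at each group mean and a dotted line at the filter level. Snord52 and both Snora73 copies drop in both fractions, and Scarna8 alone sits higher on the treated polysomal arrays, between 7.05 and 7.09.

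In polysomal RNA 10 of 41 members fell and 1 rose. Here 12.1 percent of all genes fell and 13 percent rose, so the share that fell (24.4 percent) stands closer to the background than in cytoplasmic RNA. The fallen were 3 of 15 Snora (Snora73a, Snora73b and Snora7a) and 7 of 23 Snord (Snord104, Snord14e, Snord16a, Snord42b, Snord47, Snord52 and Snord57). The median difference was -0.22 for the members and -0.03 for all genes. Treated arrays lay wholly below control for 16 members, and for 27.1 percent of all genes. With only the 6 polysomal arrays fitted, 17 members fell, and 20.4 percent of all genes.

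Snord104, a guide for large-subunit rRNA, had the largest polysomal change of the tested members. Its values were 6.08, 6.09 and 6.40 in control and 5.49, 5.43 and 4.59 in treated cells, a change of -1.02 ± 0.22 (adjusted p = 0.00284 in limma). The treated arrays lay below the filter level, and its cytoplasmic change of -0.43 ± 0.22 did not pass. Snord52 went from 6.61, 6.63 and 6.85 to 5.73, 5.94 and 5.60 (-0.94 ± 0.12), and its treated arrays too lay below the filter level. Snord47, a guide for large-subunit rRNA in Gas5, went from 9.34, 9.39 and 9.43 to 8.73, 8.54 and 8.46 (-0.81 ± 0.20), while its cytoplasmic change of -0.23 ± 0.20 did not pass. Snord14e went from 8.40, 8.41 and 7.95 to 7.39, 7.41 and 7.64 (-0.78 ± 0.16). The treated trios of these 4 lay below their control trios.

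Snora73b changed by -0.62 ± 0.08, Snord57 by -0.54 ± 0.12, Snord42b by -0.48 ± 0.17, Snora7a by -0.45 ± 0.13, Snord16a by -0.42 ± 0.10 and Snora73a by -0.35 ± 0.11. Scarna8 was the member that rose. It measured 6.74, 6.68 and 6.52 in polysomal control and 7.09, 7.05 and 7.08 in polysomal 4EGI-1 RNA, a change of 0.43 ± 0.12 (adjusted p = 0.0178 in limma). The call ended without polysomal control array 3, polysomal 4EGI-1 array 1 or polysomal 4EGI-1 array 3. Its host Haus6, a subunit of the augmin complex, rose by 0.42 in the same RNA and by 0.56 in cytoplasmic RNA, where Scarna8 changed by 0.06 and did not pass. In the unfiltered fit 11 of 54 fell and 3 rose (6.88 and 8.54 percent of genes), with the dim Snord61 (1.12 ± 0.31) and Snord85 (0.36 ± 0.11) as the further risen genes and Snora2b (-0.70 ± 0.18) and Snora41 (-0.56 ± 0.15) among the fallen.

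In all, 14 members fell in at least 1 fraction and 6 in both: Snora7a, Snora73a, Snora73b, Snord14e, Snord42b and Snord52. Of these, the Snord42b calls ended in 7 of 23 alternatives in cytoplasmic and in 10 of 23 in polysomal RNA, the unfiltered fit among them (adjusted p = 0.0611 and 0.0785 in limma). The polysomal call of Snora73a ended when polysomal control array 1 or 2 or polysomal 4EGI-1 array 1 or 2 was left out (adjusted p up to 0.119 in limma). That of Snora7a ended without polysomal control array 2 or 3 or polysomal 4EGI-1 array 2 (up to 0.0792), and its cytoplasmic call without cytoplasmic control array 3. The cytoplasmic call of Snord14e ended without cytoplasmic control array 1 or 2 or cytoplasmic 4EGI-1 array 3 (up to 0.0848). The calls of Snora73b and Snord52 held in both fractions in all 23. Passing in a single fraction does not show a difference between fractions. That difference, polysomal minus cytoplasmic effect, passed in 1 of 41 members, Snora73b (0.49 ± 0.11, adjusted p = 0.0272 in limma), where 2.31 percent of genes passed upward and 0.607 percent downward. Its fall was smaller in polysomal RNA. The call ended when any of 8 single arrays was left out and in the unfiltered fit (adjusted p = 0.0644 in limma). Snora73a had 0.54 ± 0.15 and did not pass (adjusted p = 0.0852 in limma). The other members that fell in a single fraction, among them Snord104 (-0.59 ± 0.31), Snord47 (-0.58 ± 0.29), Snord35a (0.45 ± 0.18) and Snord49a (0.40 ± 0.21), did not pass either. All polysomal arrays of Snord49a and the treated polysomal arrays of Snord35a lay below the filter level. The part of this in their polysomal changes was not tested.

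**Figure D4:**
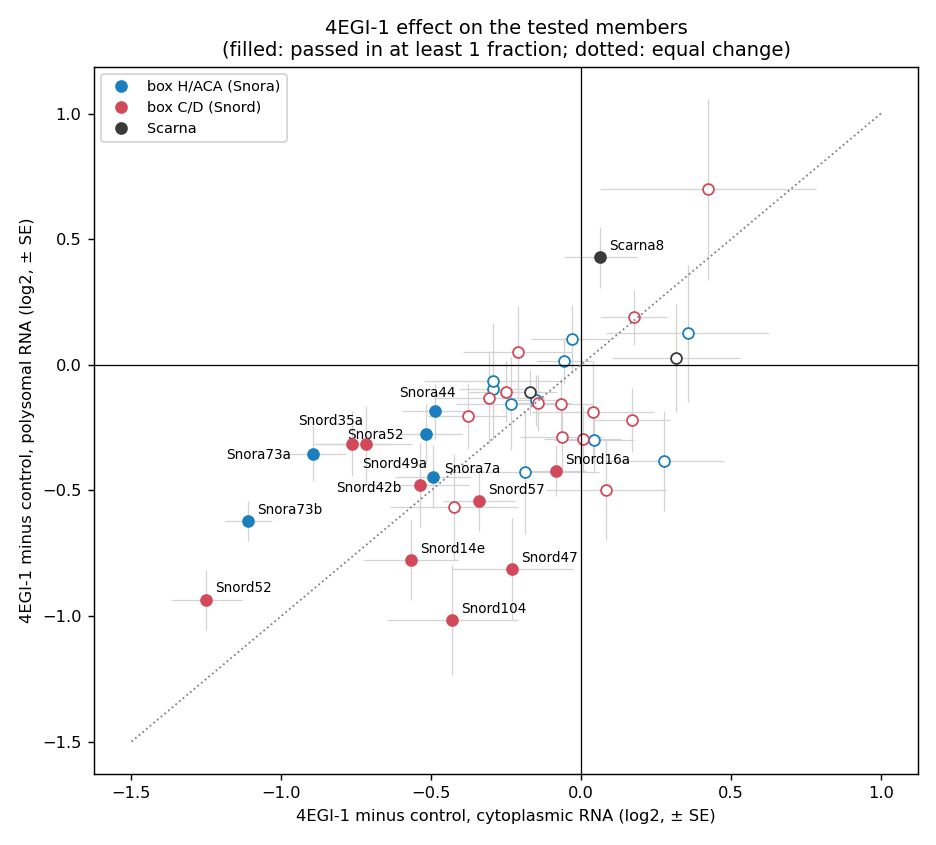
4EGI-1 minus control in cytoplasmic RNA (horizontal axis, log2) against the same in polysomal RNA (vertical axis, log2) for the 41 tested members, with standard errors as grey bars. Filled points passed in at least 1 fraction and are named, and the dotted line marks equal change. Snord52 lies furthest down in cytoplasmic RNA at -1.25, and Snord104 in polysomal RNA at -1.02.

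At the level of arrays, the median of the 41 members in cytoplasmic RNA was 7.55 to 7.86 on control arrays and 7.19 to 7.46 on treated arrays. In polysomal RNA it was 6.68 to 6.74 and 6.46 to 6.54. These 4 ranges did not overlap. Such a median can fall on a different probe set from array to array, so the ranges are not changes of single genes. The median of the per-gene changes with 4EGI-1 was -0.21 in cytoplasmic and -0.22 in polysomal RNA. The Snora median kept that order, at 7.49 to 7.91, 6.91 to 7.18, 6.41 to 6.61 and 6.25 to 6.36. It was Snora73a, Snora33 and Snora23 on the cytoplasmic control arrays, but Snora31 and Snora73a on the treated ones. Its cytoplasmic drop therefore compares different probe sets. Taken gene by gene, the median Snora change was smaller, at -0.23 in cytoplasmic and -0.18 in polysomal RNA. For Snord the treated and control ranges overlapped in each fraction (7.71 to 7.91 against 7.56 to 7.86 cytoplasmic, and 6.68 to 6.87 against 6.46 to 6.72 polysomal). For the 3 Scarna genes the cytoplasmic median was 7.26 to 7.51 and 7.14 to 7.40. Their polysomal median was 6.84 to 6.96 and 7.05 to 7.09. That polysomal median was Scarna13 on control arrays and Scarna8 on treated arrays, so its rise compares different probe sets. Per gene, the polysomal changes were -0.11 for Scarna13, 0.03 for Scarna17 and 0.43 for Scarna8. These ranges describe the tested members only and carry no test.

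Few falls could be set against a host: the hosts of Snord52, Snora73a, Snora73b, Snord35a and Snord49a are not among the 21 pairs. Of the 21 pairs, 3 small RNAs fell in cytoplasmic RNA while 1 host fell and 1 rose, and the pair in which both fell was Snora52 (-0.52) with Rplp2 (-0.29). In polysomal RNA 4 small RNAs fell and 1 rose, against 3 hosts each way. Both fell in 1 pair, Snord42b (-0.48) with Rpl23a (-0.29). In another, Snord57 fell by 0.54 in polysomal RNA where its host Nop56 rose by 0.31. Hspa8, a heat shock chaperone gene, changed by -0.04 in cytoplasmic and -0.03 in polysomal RNA where Snord14e inside it changed by -0.57 and -0.78. The small RNA lay below its host in 13 of 21 pairs in cytoplasmic and in 12 of 21 in polysomal RNA.

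Some hosts are noncoding genes whose exons are not known to encode a protein, and 7 of 19 listed were measured. In cytoplasmic RNA 3 rose (Snhg16 by 1.68 ± 0.25, Snhg5 by 1.31 ± 0.10 and Snhg17 by 0.56 ± 0.11) and 1 fell (Dancr, -0.49 ± 0.14), where 10.1 percent of all genes rose and 7.79 percent fell. In polysomal RNA the same 3 rose, by 2.01 ± 0.25, 1.23 ± 0.10 and 0.65 ± 0.11, and 0 fell in limma (0 also at an unadjusted p under 0.05), against 13 and 12.1 percent of all genes. Their own snoRNAs are not among the 54 genes, so no pair could be formed. Gas5, host of Snord47, changed by 0.20 ± 0.09 in each fraction and did not pass.

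Of the snoRNAs known for cleavage of the rRNA precursor, 5 of 10 listed were measured and 4 tested. Snora73a, Snora73b and Snord14e fell in both fractions, where 7.79 percent of all genes fell in cytoplasmic and 12.1 percent in polysomal RNA, with the limits on Snora73a and Snord14e given above. Snord22, also of this list, measured 9.88, 10.21 and 9.85 on cytoplasmic control and 9.95, 9.95 and 9.61 on cytoplasmic 4EGI-1 arrays, which overlap, and its changes of -0.14 ± 0.11 and -0.15 ± 0.11 did not pass. All 4 were lower in polysomal RNA in both treatments. The dim Snord118 changed by 0.01 ± 0.27 and 0.07 ± 0.27 with 4EGI-1. Since Snora73a and Snora73b may share signal, they may count as a single observation.

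Among the proteins that form the particles, most core mRNAs of box H/ACA fell in polysomal RNA. In cytoplasmic RNA Nhp2 (-0.37 ± 0.12) and Nop10 (-0.36 ± 0.09) fell, 2 of 4 H/ACA core genes, and 0 of 4 box C/D core genes changed in limma (0 also at an unadjusted p under 0.05). In polysomal RNA Nop10 (-0.81 ± 0.09), Nhp2 (-0.53 ± 0.12) and Gar1 (-0.30 ± 0.09) fell, and Dkc1, the pseudouridine synthase, changed by -0.10 ± 0.08. For box C/D, Snu13 fell by 0.27 ± 0.08, Nop56 rose by 0.31 ± 0.08, and Fbl, the methyltransferase fibrillarin, changed by -0.10 ± 0.09. So 3 of 4 H/ACA core genes fell, and 1 of 4 box C/D core genes fell and 1 rose, where 12.1 percent of all genes fell and 13 percent rose. The medians were -0.42 and 0.00 against -0.03 for all genes, and the difference between these lists was not tested.

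Of 17 assembly and Cajal body factors 0 changed in cytoplasmic RNA in limma (1 fell at an unadjusted p under 0.05). In polysomal RNA Tgs1, which makes the trimethyl cap, rose by 0.38 ± 0.13, and Znhit3 and Pih1d1, which help to assemble the particles, fell by 0.51 ± 0.09 and 0.38 ± 0.12, against 13 percent of all genes that rose and 12.1 percent that fell. Of 18 measured genes for the trimming and decay of snoRNA ends, 1 rose and 1 fell in cytoplasmic RNA: Zcchc7 of the nuclear exosome cofactor TRAMP (0.85 ± 0.12) and the poly(A) polymerase gene Tent4a (-0.82 ± 0.08), against 10.1 and 7.79 percent of all genes. In polysomal RNA 6 of 18 rose, against 13 percent of all genes, led by the exosome helicase Mtrex (0.83 ± 0.07) and the exonucleases Xrn1 (0.70 ± 0.07) and Xrn2 (0.57 ± 0.07), and Tent4a fell (-0.86 ± 0.08). The polysomal effect exceeded the cytoplasmic effect for 4 of the 18, against 2.31 percent of all genes: Mtrex (0.91 ± 0.10), Exosc10 (0.68 ± 0.16), Xrn1 (0.62 ± 0.10) and Xrn2 (0.47 ± 0.10).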

How the data were processed

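The deposited values are log2 expression values per probe set, made by the authors with RMA, per the submitters' processing notes; its version is not given in the sources used here. Names came from the platform annotation table and were brought up to date with RefSeq (GRCm38.p6). Of several probe sets of a gene the brightest stood for it, and genes whose 12-array mean lay under the 40th percentile over the probe sets (log2 6.0) were left out, leaving 13180. All 12 arrays entered 1 fit of group means in limma (version 3.58.1, R version 4.3.3; lmFit, eBayes without trend). The Benjamini-Hochberg adjustment ran over all genes tested, with a threshold of 0.05, in 5 comparisons: 4EGI-1 against control in each fraction, the difference of these effects, and polysomal against cytoplasmic RNA in each treatment. Errors are standard errors of the fit. Replicates are called biological in the design text, with no detail of the cultures, so a p-value reflects the spread among these arrays only, and their number limits the precision. The script was checked on simulated data.

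Named were all members that passed with 4EGI-1, the 5 highest and 5 lowest of Snora and of Snord in the fraction comparisons, every Scarna, the members for precursor cleavage, their hosts, and up to 4 genes per list; further members were named after their values were seen. Members, lists and settings were chosen with earlier results of these data known. Whether replicate numbers pair the samples was not settled. Same-numbered cytoplasmic arrays had correlations of deviations from -0.22 to 0.56, and differently numbered ones from -0.70 to 0.41. For polysomal arrays these were -0.06 to 0.16 and -0.16 to 0.09. Between cytoplasmic and polysomal control arrays they were 0.02 to 0.14 and -0.13 to 0.009, without overlap. In every other pair of groups the ranges overlapped. The reported fit is unpaired, and the replicate block among the alternatives pairs by number. Mature snoRNA sequences and strands were not used here. Alternatives tried are given at the end.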

Additional observations from a re-analysis of the deposited data

Results flagged for a closer look

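Snora73b was the member whose 4EGI-1 effect differed between the fractions by the test of that difference itself: the polysomal minus the cytoplasmic effect was 0.49 on the log2 scale (SE 0.11, adjusted p = 0.0272 in limma). It fell in both fractions, by 1.11 in cytoplasmic and by 0.62 in polysomal RNA, in 3 of 3 treated arrays each. Polysomal 4EGI-1 arrays measured 6.03, 6.03 and 6.08, close to the filter level of 6.0, and the part of this in the difference was not tested.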

How the results depend on the processing

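The 87 calls of single members were followed through 11 other settings and with each of 12 arrays left out. Of these, 73 passed throughout where they could be fitted, 14 ended in at least 1 setting, and 0 changed direction. The number lower in polysomal RNA ranged from 25 to 38 in control and from 27 to 39 in 4EGI-1 cells over the 11 settings, and from 30 to 33 and 31 to 35 with an array left out. With 4EGI-1, 6 members fell in cytoplasmic and 17 in polysomal RNA when only the compared arrays were fitted, and 2.8 and 20.4 percent of all genes; the cause was not tested. Leaving out an array gave 8 to 12 fallen in cytoplasmic and 8 to 13 in polysomal RNA, 0 to 3 risen in cytoplasmic and 0 to 1 in polysomal RNA, and 0 to 1 upward and 0 to 2 downward for the difference of effects. Without a filter 3 rose in polysomal RNA, and 0 passed upward for the difference of effects. Scarna8 became the 1 member higher in polysomal 4EGI-1 RNA under both quantile normalizations, under centring, with only the compared arrays, with the replicate block, and in 0 to 1 member with an array left out; in control cells that range was also 0 to 1. With the replicate block the other counts stayed within 1.5 times. The median difference of effects ranged from -0.054 to 0.055 with an array left out, turning to -0.0031 without cytoplasmic control array 2, -0.054 without cytoplasmic 4EGI-1 array 3 and -0.033 without polysomal control array 1; these causes were not tested. Snora21 ended in control cells (-0.26) when its disagreeing probe sets were averaged. Centring shifted the median of all genes in fraction comparisons to at most 0.09. The filter on both fractions was chosen after seeing the data. The sequence box search planned for the members could not be run, as no sequence table held them.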

Other observations

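Other structural RNAs of the array, picked after the data had been seen, showed a like pattern in part. Of 8 tested, 5 were lower in polysomal RNA in both treatments: in control cells Rpph1, the RNA of RNase P, by -2.43 ± 0.11, Rn7sk, the regulator of transcription elongation, by -2.38 ± 0.11, Rny3, a Y RNA, by -1.20 ± 0.21, Rmrp, the RNA of RNase MRP, by -1.10 ± 0.10, and Rprl2, annotated as an RNase P RNA, by -0.52 ± 0.07. Terc, the telomerase RNA, Rnu12, of the minor spliceosome, and Rprl1 gave 0.00, -0.21 and -0.03 and did not pass. With 4EGI-1, 0 of the 8 changed in either fraction at an adjusted p under 0.05 in limma (1 in cytoplasmic and 0 in polysomal RNA at an unadjusted p under 0.05). By annotated class, 16.5 percent of 351 lncRNA genes, 21.6 percent of 102 microRNA genes and 11.8 percent of 12526 protein-coding genes were lower in polysomal control RNA.

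A further 22 probe sets carried a Snora, Snord or Scarna symbol among several and were not named. Of these, 7 were copies of Snord116, 5 of them below the filter level. Of the other 15, 6 lay below the filter level. These 15 had a median difference of -1.22, polysomal minus cytoplasmic, in control cells, with 14 of 15 below 0. The Snord116 copies had a median of -0.28, with 6 of 7 below 0. Of all genes without a filter, 10949 of 19937 lay below 0 in that comparison. Snora21 had probe sets that disagreed: the dimmer gave 0.03 between fractions in control cells and -0.68 with 4EGI-1 in polysomal RNA, where the brighter gave -0.54 and -0.10.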
